A study of Mus musculus with 11 samples.

Results

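The transcripts of the cytosolic heat shock response and of the unfolded protein response of the endoplasmic reticulum (ER) were followed in the cerebrum of mice with an error-prone mitochondrial DNA polymerase. The set comprised 40 genes chosen by symbol, 21 of the ER and 19 of the cytosol, of the 36666 genes in the count table. All 40 were found and all 40 passed the filter on low counts, as did 17983 genes in all. RNA-Seq had been performed on poly(A)+ RNA of the cerebrum of 11 male C57/Bl6 mice aged 1 year. The 7 Polg mutator mice were homozygous for a knock-in (D257A) that removes the proofreading activity of polymerase gamma in every tissue. The 4 controls were 3 WT/WT mice and 1 WT/D257A mouse, which carries the allele on 1 chromosome. The mutators and controls were littermates, and the knock-in changes a codon of Polg, which counts per gene cannot show.

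Gene counts ranged from 28249345 to 121182250 per control library and from 37821243 to 91219204 per mutator library. Mutator 248 had 3.00 gene counts per aligned read in the submitters' table of read totals, against 0.744 to 0.775 in the other 10 mice, and the source of that gap was not tested. Levels are given as CPM, counts scaled to a common library size with trimmed mean of M-values (TMM) factors. Astrocyte, oligodendrocyte, microglia, endothelial and neuron markers were all detected, with no marker of the table at 0 in all mice, and 6 of 8 neuron markers were in the table.

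The unfolded protein response starts at sensors in the ER membrane, among them Ire1 (gene Ern1) and Atf6. When unfolded proteins accumulate in the ER lumen, Ire1 cuts a short intron out of Xbp1 mRNA and Atf6 is cleaved to a transcription factor, and both routes switch on genes for lumenal chaperones, disulfide isomerases and ER-associated degradation. In the cytosol, unfolded proteins release heat shock factor 1 (Hsf1), which drives genes for Hsp70, Hsp90, their co-chaperones and the small heat shock proteins. Neurons and glia hold large amounts of the constitutive chaperones Hspa8 and Hsp90, while inducible Hsp70 is low in unstressed brain.

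No member passed the test between mutators and controls. In edgeR (quasi-likelihood F-test, Benjamini-Hochberg adjustment over all genes tested), 0 of 40 members had an adjusted p under 0.05 in either direction, where 1.24% of all genes tested did (0.439% higher and 0.801% lower in mutators). DESeq2 also called 0 of 40, where it called 615 of 17377 genes. At an unadjusted p under 0.05 there was 1 member by edgeR (Herpud1), against 15.8% of all genes by edgeR. By DESeq2 there were 2, and the share of all genes by DESeq2 was not computed. For 0 of 40 members did the 4 controls and 7 mutators fall into ranges that did not overlap, against 2.62% of all genes. The 95% interval of the log2 fold change lay within ± 0.5 for 36 members (90% of them, against 73.5% of all genes). The 4 whose intervals reached past these limits were Hspa5, Chordc1, Hspb1 and Cryab.

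The ER members were mostly above and the cytosolic members mostly below the control level in point value. Among ER members 17 had a positive and 4 a negative log2 fold change, with a median of 0.08, and among cytosolic members 6 were positive and 13 negative, with a median of -0.02. The median over all genes tested was 0.0014, and 50.4% of them had a positive fold change. The ER median was 0.03 without mutator 249 and 0.04 with 1 surrogate variable, and it ran from 0.06 to 0.11 in the other alternatives. The cytosolic median ran from -0.04 to 0.01 and was positive without control 246 (0.0104) and without mutator 207 (0.0021). The number of cytosolic members with a positive fold change went from 6 to 11 without control 246 and to 10 without mutator 207. Of 46 other genes of ER folding and degradation 26 were positive and 20 negative, with a median of 0.01. Of 41 other heat shock and chaperone genes 23 were positive and 18 negative, with a median of 0.04. The difference between the ER and cytosolic members was not tested.

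**Figure D1:**
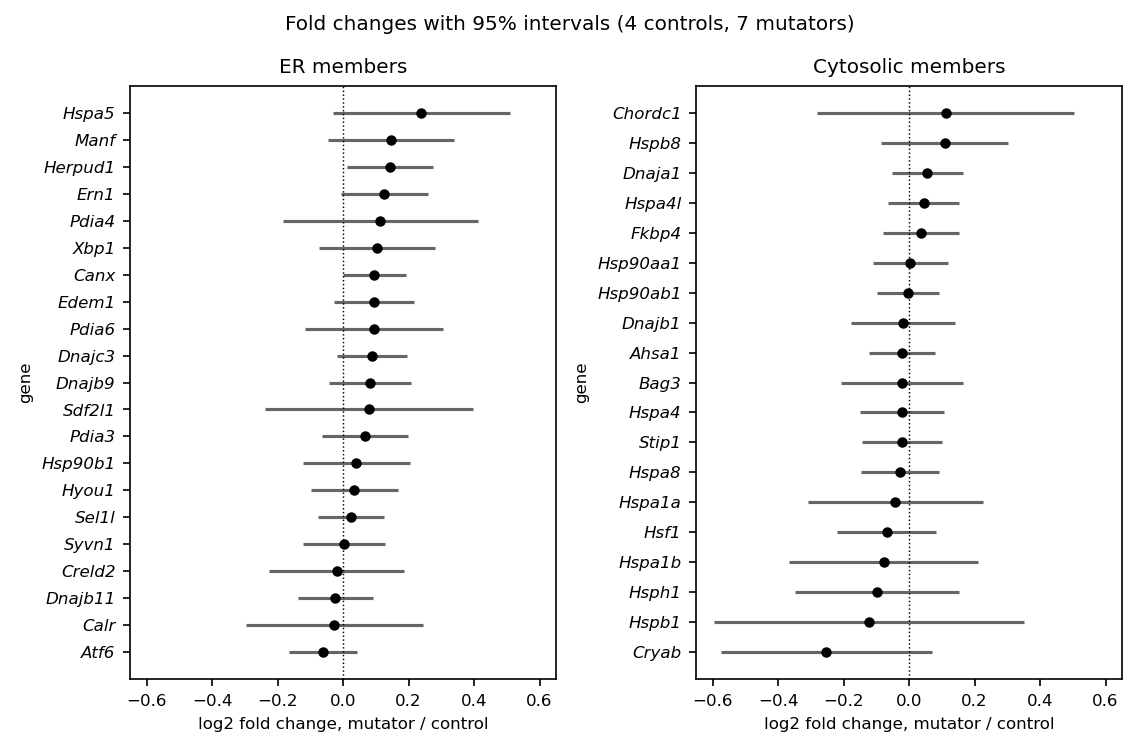
Log2 fold change (mutator over control, x axis) of each ER member (left) and each cytosolic member (right), ordered by size within each panel, as points with 95% intervals from the fit over 4 controls and 7 mutators. The interval of 1 gene, Herpud1, lies wholly above 0 before adjustment, and 36 of 40 intervals lie within ± 0.5.

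The cytosolic chaperones Hspa8, Hsp90ab1 and Hsp90aa1 were the most abundant members. Per kilobase of annotated exon, control levels were 479 CPM for Hspa8, 443.5 for Hsp90ab1 and 277 for Hsp90aa1. Calnexin (Canx, 91.8 CPM per kilobase) and calreticulin (Calr, 91.2), lectin chaperones that hold glycoproteins in the ER, were the highest ER members. The lowest 3 were the stress-inducible Hspa1a (3.36 CPM per kilobase) and Hspa1b (2.63) and the sensor Ern1 (2.05). Of the 100-base windows of the Hspa8 transcript 63.8% occurred again elsewhere in the mm9 genome, and 60.4% of those of Hsp90aa1 did. Reads from these windows may be missing from their counts or belong to copies, so their levels are uncertain. Such windows were found in 12 members, among them Hspb1 (48.7%), Dnaja1 (18%) and Ahsa1 (10.3%). The Hspa1b transcript shared 49.9% of its 100-base windows with Hspa1a, its neighbour on chromosome 17, so the level of either gene is uncertain.

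Hspa5 (BiP), the Hsp70 of the ER lumen, had the largest positive fold change in the set. Its levels were 203, 195.5, 210.4 and 222.5 CPM in controls 205, 237, 239 and 246. In mutators they were 184 CPM in mouse 207, 223.5 in 217, 226 in 240, 238 in 211, 258 in 236, 271 in 248 and 317 in 249. Of the mutators, 6 were above every control, all but 207, and 207 was below every control. The means were 208 ± 11.5 CPM (SD, n = 4) and 245 ± 42.0 CPM (SD, n = 7), a log2 fold change of 0.24 ± 0.12 (SE, edgeR adjusted p = 0.379). Without mutator 207 the log2 fold change was 0.30 (edgeR adjusted p = 0.0978), and without mutator 249 it was 0.17 (edgeR adjusted p = 0.355). Without both 207 and 249, a choice made after seeing the data, it was 0.23 ± 0.06 (SE, edgeR adjusted p = 0.0506). These were the lowest and highest mutators for Hspa5. Leaving them out narrows the spread by choice, so that p cannot be read as a test. Hsp90b1 (Grp94), the Hsp90 of the lumen, had 256.9 to 313 CPM in controls and 238 to 341 CPM in mutators, with a median of 292, and its log2 fold change was 0.04 ± 0.08 (SE), which was -0.0037 without the WT/D257A control.

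The other lumenal members overlapped between groups. Canx was 384.5 ± 20.9 CPM (SD, n = 4) in controls and 411 ± 17.4 CPM (SD, n = 7) in mutators, and 3 of 7 mutators were above every control, with a log2 fold change of 0.10 that was 0.06 without control 237. Dnajc3, an Hsp70 co-chaperone of the ER, was 68.6 to 75.1 CPM in controls and 67.6 to 81.4 in mutators, with 4 mutators above every control. Manf, a secreted ER-stress protein with trophic activity, was 26.1 to 32.1 CPM in controls and 25.8 to 40.5 CPM in mutators, a log2 fold change of 0.15 ± 0.09 (SE), which was 0.09 without mutator 249 and 0.10 without control 237. Dnajb9, the BiP co-chaperone ERdj4, was 32.8 to 40.7 CPM in controls and 36.5 to 42.9 in mutators, a log2 fold change of 0.08 that was 0.03 without control 237. In Manf and Dnajc3 the lowest of the 11 mice was mutator 207 and the highest was mutator 249. The remaining lumenal members Hyou1, Calr, Dnajb11, Sdf2l1 and Creld2 had log2 fold changes between -0.03 and 0.08. The 3 protein disulfide isomerases Pdia3, Pdia4 and Pdia6, which form and rearrange disulfide bonds, had log2 fold changes of 0.07, 0.11 and 0.09, with all 3 highest in mutator 249 and lowest in mutator 207.

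Herpud1, an ER membrane protein of the degradation complex, had the lowest p-value of the set. Controls were 56.0, 54.2, 56.8 and 55.2 CPM in mice 205, 237, 239 and 246, and mutators were 53.4 to 72.5 CPM with a median of 60.5. Of 7 mutators 6 were above every control, and mouse 211 was below every control. The log2 fold change was 0.14 ± 0.06 (SE, edgeR adjusted p = 0.268), and its adjusted p ran from 0.182 to 0.564 over the alternatives. Edem1, which passes misfolded glycoproteins to degradation, was 25.9 to 31.3 CPM in controls and 27.7 to 32.3 in mutators, a log2 fold change of 0.09 that was 0.05 without control 246. Sel1l and Syvn1, partners in the membrane ubiquitin ligase complex, had log2 fold changes of 0.02 and 0.0028.

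**Figure D2:**
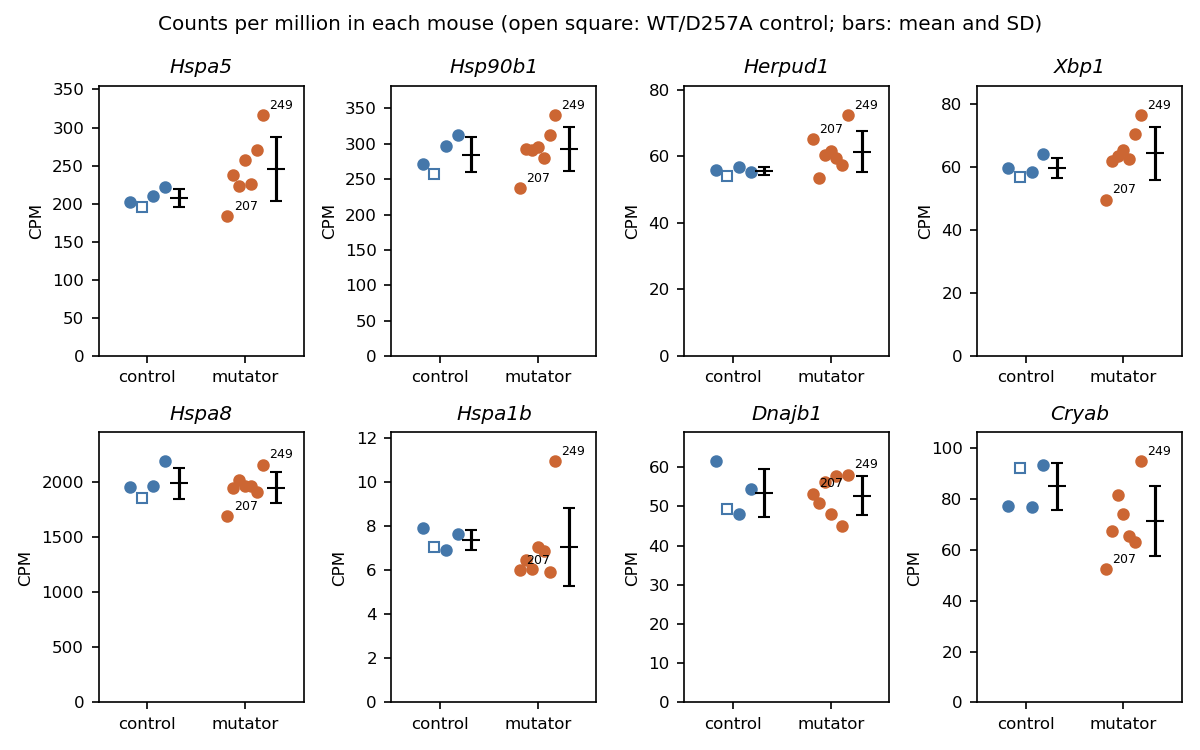
CPM (y axis, from 0) of 8 members in each control (blue) and mutator (orange) mouse, with mean and SD as bars and the WT/D257A control as an open square. Mutators 207 and 249 are labelled: for Hspa5 they were 184 and 317 CPM, and the control and mutator points overlap in every panel.

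Promoters of some ER members held sequences known to be bound by Atf6 and Xbp1. RefSeq windows (GRCm38.p6, 250 bases before to 50 after a transcription start) were available for 18 ER and 14 cytosolic members. On both strands they were searched for the ER stress response element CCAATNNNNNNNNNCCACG, for ATTGGNCCACG (ERSE-II), for TGACGTGG and for the heat shock element of 3 units, GAANNTTCNNGAA or its complement. Below, the matched letters are in capitals, read 5′ to 3′ on the strand of the gene. Hsp90b1 and Chordc1 had further matches, which are not shown.
Hspa5 (chr2:34772020-34772049, plus strand): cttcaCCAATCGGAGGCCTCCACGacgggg
Hsp90b1 (chr10:86705632-86705661, minus strand): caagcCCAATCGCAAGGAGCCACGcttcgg
Canx (chr11:50325794-50325823, minus strand): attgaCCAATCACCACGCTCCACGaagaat
Dnajc3 (chr14:118937822-118937851, plus strand): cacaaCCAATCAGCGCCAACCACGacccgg
Pdia6 (chr12:17266486-17266515, plus strand): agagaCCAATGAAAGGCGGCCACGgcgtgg
Herpud1 (chr8:94386368-94386397, plus strand): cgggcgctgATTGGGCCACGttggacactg
Dnajb11 (chr16:22857843-22857872, plus strand): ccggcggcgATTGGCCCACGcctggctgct
Chordc1 (chr9:18292255-18292284, plus strand): tgcaaccgGAACGTTCGGGAAaattcctga
Hsph1 (chr5:149636279-149636308, minus strand): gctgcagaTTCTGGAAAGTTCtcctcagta

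The ER stress response element was found in 8 of 18 ER members with a window (Hspa5, Hsp90b1, Calr, Canx, Dnajc3, Creld2, Pdia6 and Syvn1) and in 0 of 14 cytosolic ones, where 0.137% of 27025 genes with windows held it. ERSE-II was found in Herpud1 and Dnajb11 and in 0.0444% of all genes. The heat shock element was found in Hsph1 and Chordc1 of the cytosolic members, in 0 ER members and in 0.662% of all genes. TGACGTGG was in no member window and in 0.714% of all genes. The 8 genes with the ER stress response element had log2 fold changes from -0.03 (Calr) to 0.24 (Hspa5), 6 positive and 2 negative. A match describes these letters in these windows and says nothing of binding in these brains. Elements with other letters or outside the windows were not searched for, so a window without a match does not show that a gene lacks the element. Members without a window could not be searched.

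The sensors were also measured. Ern1 was 14.7 to 17.7 CPM in controls and 17.0 to 19.5 CPM in mutators, 5 of which were above every control (log2 fold change 0.13 ± 0.06, SE, edgeR adjusted p = 0.351). Without control 239, the lowest of the controls, it was 0.07 (edgeR adjusted p = 0.6865). Atf6 was 89.1 to 102 CPM in controls and 84.5 to 98.5 CPM in mutators, a log2 fold change of -0.06 ± 0.05 (SE), which was -0.02 without control 246. Xbp1 mRNA was 56.8 to 64.3 CPM in controls and 49.7 to 76.55 CPM in mutators, with a log2 fold change of 0.10 ± 0.08 (SE). It was 0.06 without mutator 249 and 0.16 without mutator 207. As for Hspa5, mutator 207 was the lowest and 249 the highest of all mice for Xbp1.

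The counts per exon bin gave a second readout of Xbp1. The intron that Ire1 removes is 26 bases long and lies in exon 4 at chr11:5424285-5424310 (mm9, plus strand), within the coding region. It is shown with 2 exonic bases on either side, the intron in capitals.
Xbp1 intron: agCACTCAGACTATGTGCACCTCTGCAGca

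The flattened reference annotation (a later release than the authors') has 19 bins for Xbp1 and the deposited files have 20. Bins were therefore matched from the 3′ end, which makes the 26-base intron bin 11, between bins of 43 and 57 bases. Reads are 100 bases long and are counted in every bin they overlap. In each of the 10 mice with exon files bin 11 had fewer counts than the 2-base bin 13, for example 258 against 329 in WT/WT mouse 205 and 116 against 156 in mutator 249. A read spliced across the intron adds to the bins on either side of it and not to bin 11. Whether reads were also lost in alignment at this site was not tested.

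The count in bin 11 as a percent of the mean of its flanking bins did not separate the genotypes. The bins differ in length and a read is counted in every bin it overlaps. The percent is therefore not the share of unspliced mRNA. The percent was 68.3%, 66.3% and 73.7% in WT/WT mice 205, 239 and 246. Mutators ran from 60.9% to 69.5%, with a median of 65.9%. The means were 69.45% ± 3.80 (SD, n = 3) and 65.55% ± 3.42 (SD, n = 7), and the difference of -3.91 percentage points gave p = 0.158 in a 2-sided exact permutation test of 120 splits, the smallest p of which is 0.00833. This comparison was added after the exon counts had been seen. In the test of bin usage within Xbp1, bin 11 had a log2 difference of -0.04.

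**Figure D3:**
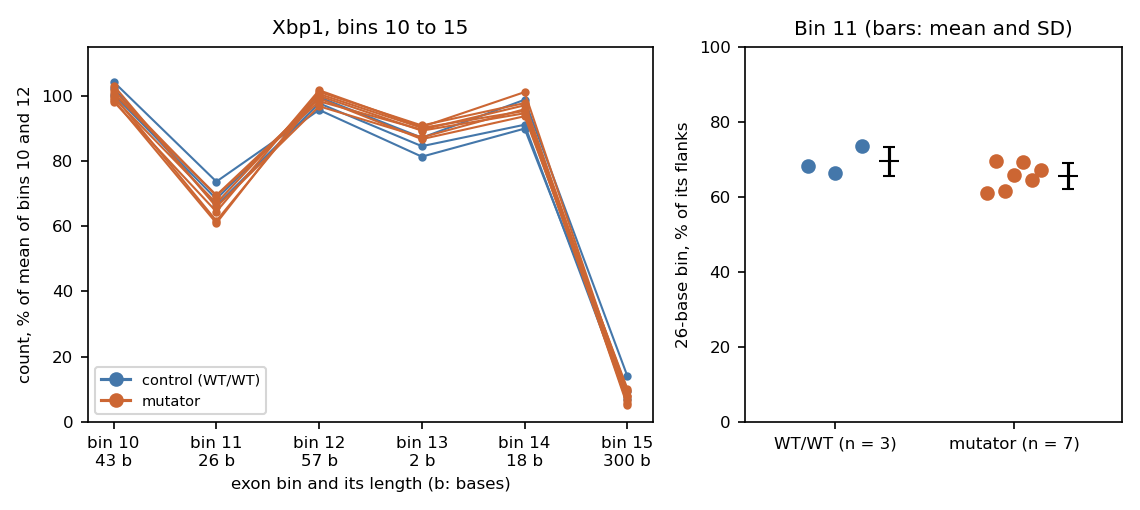
Left, counts in Xbp1 exon bins 10 to 15 (x axis, with bin lengths in bases) as a percent of the mean of bins 10 and 12, 1 line per mouse, blue for WT/WT and orange for mutator. Right, the same percent for the 26-base bin 11 in each mouse with mean and SD, 60.9% to 69.5% in mutators and 66.3% to 73.7% in WT/WT.

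Counts of inducible Hsp70 were low in all mice, though reads from windows that Hspa1a and Hspa1b share may be missing from them. Hspa1a was 11.0, 9.53, 9.85 and 8.90 CPM in controls 205, 237, 239 and 246, and Hspa1b was 7.89, 7.02, 6.92 and 7.63 CPM. In 6 mutators Hspa1a lay between 8.00 and 9.28 CPM and Hspa1b between 5.92 and 7.06 CPM, and mutator 249 stood apart with 14.45 and 10.9 CPM. Log2 fold changes were -0.04 ± 0.13 (SE) and -0.08 ± 0.14 (SE), and without 249 they were -0.16 and -0.21 (edgeR adjusted p = 0.3525 and 0.253). In Hspa1b 5 mutators were below every control. Hspa8, the constitutive cytosolic Hsp70, was 1851 to 2187 CPM in controls and 1692 to 2157 CPM in mutators, a log2 fold change of -0.03 ± 0.06 (SE).

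The partners of Hsp70 overlapped between groups. Dnajb1, the J protein Hsp40 and a target of Hsf1, was 61.45, 49.25, 48.0 and 54.5 CPM in controls and 45.0 to 58.1 CPM in mutators, with a median of 53.25 CPM and a log2 fold change of -0.02 ± 0.08 (SE). Dnaja1 had a log2 fold change of 0.06. Hsph1, Hspa4 and Hspa4l, nucleotide exchange factors of the Hsp110 family, had values of -0.10, -0.02 and 0.04, and Bag3, a co-chaperone in selective autophagy, had -0.02. Without control 205 the log2 fold change of Dnajb1 was 0.06 and that of Hspa1a was 0.02.

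Hsp90 and its co-chaperones had point values on both sides of 0, 3 positive and 3 negative. Hsp90aa1, the inducible cytosolic Hsp90, was 943 to 1166 CPM in controls and 1002 to 1152 CPM in mutators, and its log2 fold change of 0.0042 ± 0.06 (SE) had an interval from -0.11 to 0.12. Hsp90ab1, the constitutive form, had an interval from -0.10 to 0.09. Stip1, Ahsa1 and Fkbp4, co-chaperones that steer the Hsp90 cycle, had log2 fold changes between -0.02 and 0.04. Chordc1, which binds Hsp90, was 46.2 to 59.5 CPM in controls and 33.1 to 70.3 CPM in mutators, again with 207 lowest and 249 highest. Hsf1 itself was 34.5 to 41.75 CPM in controls and 29.7 to 39.8 CPM in mutators, a log2 fold change of -0.07 ± 0.07 (SE), from -0.11 without control 205 to -0.01 without control 237.

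The small heat shock proteins had a median standard error of 0.14, against 0.06 over all members. Cryab (alpha B-crystallin), which oligodendrocytes and astrocytes express, was 77.25, 92.15, 76.9 and 93.4 CPM in controls and 52.3 to 94.7 CPM in mutators with a median of 67.4 CPM. Of the mutators 5 were below every control, and 249 was above every control. The log2 fold change was -0.25 ± 0.14 (SE, edgeR adjusted p = 0.4395), and without 249 the adjusted p was 0.166. Beside it, 1 of 8 oligodendrocyte markers was lower in mutators, Opalin, at 22.9 ± 0.557 CPM (SD, n = 4) against 13.0 ± 3.25 CPM (SD, n = 7, edgeR adjusted p = 0.03845), and 6 of 8 had negative fold changes with a list median of -0.21. At an unadjusted p under 0.05 there were 5 of 8 by edgeR, all lower (62.5%, against 15.8% of all genes). The summed markers were 5000 to 5717 CPM in controls and 4860 to 6816 CPM in mutators, with none at 0 in all mice, and their part in the Cryab values was not tested. In bulk tissue fewer cells of a type and less RNA per cell cannot be told apart. Hspb1 (Hsp27) was 3.125 to 4.58 CPM in controls and 1.89 to 5.76 CPM in mutators, with mutator 207 lowest and 249 highest. Its log2 fold change was -0.12 ± 0.22 (SE), -0.28 without 249 and -0.01 without 207. Hspb8 had a log2 fold change of 0.11 ± 0.09 (SE).

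**Figure D4:**
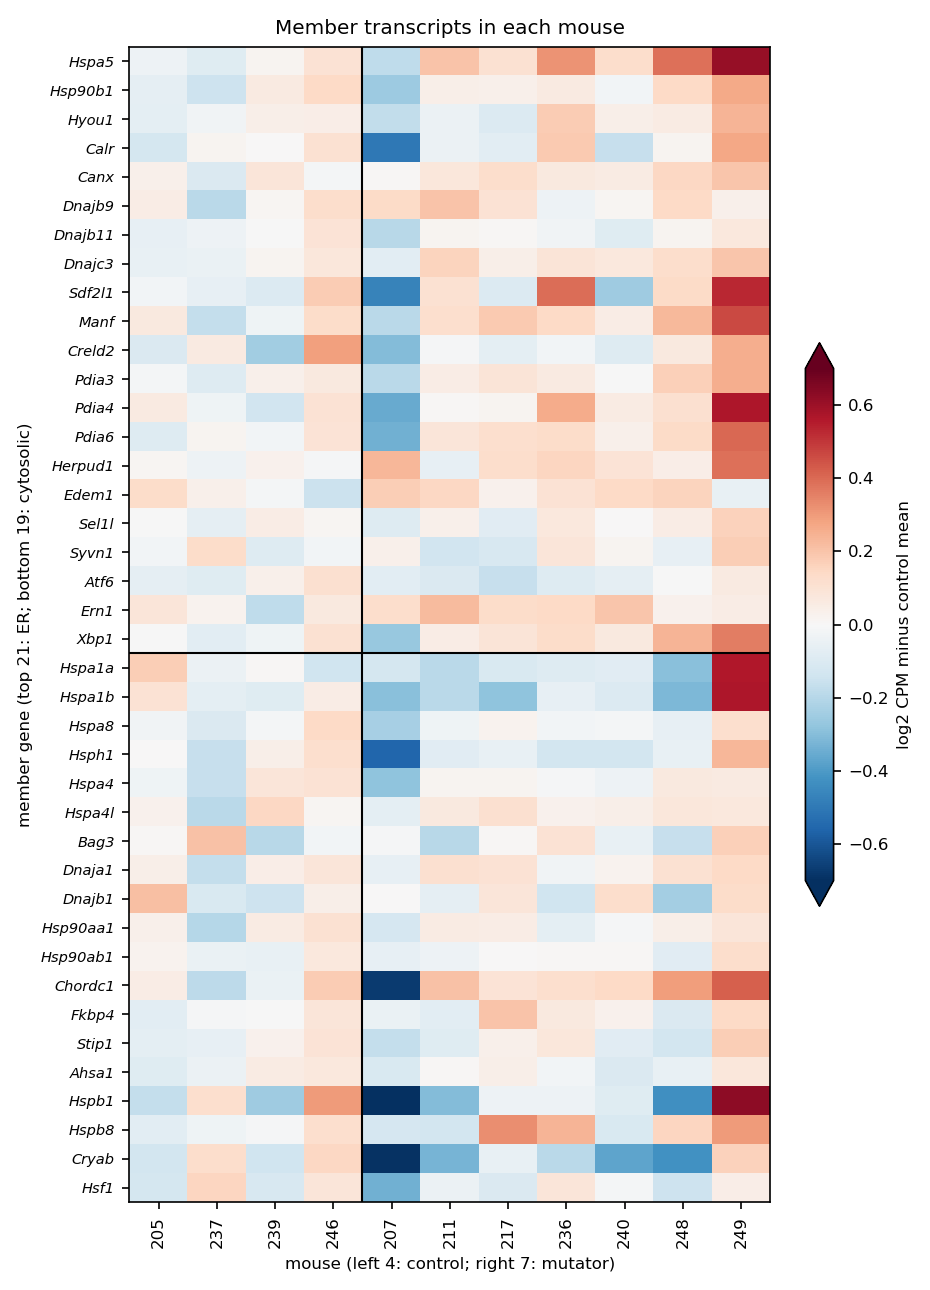
Log2 CPM of each member (rows, ER above and cytosolic below the line) minus the control mean, in each mouse (columns, 4 controls left and 7 mutators right), with colours ending at ± 0.7. Column 249 is mostly red and column 207 mostly blue, and 1 value lies past the colour scale, Hspb1 at -0.97 in mouse 207.

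A pair of mutators stood at opposite ends for many members. Mutator 249 was the highest of the 11 mice for 25 of 40 members (15 ER and 10 cytosolic), where it was highest for 9.28% of all genes. Mutator 207 was the lowest for 23 of 40 members (14 ER and 9 cytosolic), where it was lowest for 12.2% of all genes. The median difference from the control mean was 0.26 for ER and 0.14 for cytosolic members in 249, and -0.18 and -0.12 in 207. Over all genes it was 0.00097 in 249 and 0.0047 in 207. These counts describe single mice and were noticed in the data.

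The lists closest in function did not stand at an end in this way. The median difference from the control mean was 0.03 in both mice for 46 other genes of ER folding and degradation, and it was 0.0033 in 207 and 0.05 in 249 for 41 other chaperone genes. Of the remaining lists, the blood marker median was the highest of the 11 mice in 207 (1.51) and the choroid plexus median the lowest (-0.32), as were the astrocyte and endothelial medians. The cold-inducible RNA-binding protein genes Cirbp and Rbm3 were highest in mutator 207, at 116 and 167 CPM. In the other 10 mice Cirbp was 54.6 to 69.5 CPM and Rbm3 92.2 to 140.5 CPM, and mutator 249 had the lowest Cirbp. Of immediate early genes, transcripts that neurons induce within minutes of activity, Fos was 17.1 CPM in 249 and 30.2 to 70.8 CPM in the other mice, and Arc was 90.1 CPM in 249 and 146 to 295 CPM elsewhere. By edgeR 0 of 12 immediate early genes passed the adjusted threshold, against 1.24% of all genes. An unadjusted p under 0.05 was found for 3 (25%), against 15.8% of all genes. Fold changes were negative for 12 of 12, where 50.4% of all genes had a positive one. The part of any of these lists in the values of 207 and 249 was not tested.

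Hspa5 and Hsp90b1 varied together across mice. After removal of the group means, log2 CPM of the pair gave Pearson r = 0.93 over 11 mice (permutation p = 9e-05, adjusted over 4 pairs 0.00036) and Spearman rho = 0.90 (permutation p = 0.00033, adjusted 0.00132). Without 207 and 249, the 2 mice farthest from the median of Hspa5, r was 0.78 (permutation p = 0.0134), and within the 7 mutators it was 0.97 (permutation p = 0.00056). The other pairs did not pass. Hspa1b with Dnajb1 gave r = 0.48 and rho = 0.59 (permutation p = 0.123 and 0.0613, adjusted 0.246 and 0.123), and r = 0.18 without 205 and 249. Hspa5 with Dnajb1 gave r = -0.07 and rho = -0.23 (permutation p = 0.839 and 0.502, adjusted 0.839 and 0.502), and r = -0.59 without 207 and 249. Fos with Dnajb1 gave r = 0.33 and rho = 0.45 (permutation p = 0.331 and 0.174, adjusted 0.442 and 0.232), and it rested on single mice. For that pair r was 0.0016 without control 205 alone (adjusted permutation p = 0.997), 0.87 without mutator 249 alone (adjusted permutation p = 0.0012), 0.72 without both and -0.10 within the mutators.

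**Figure D5:**
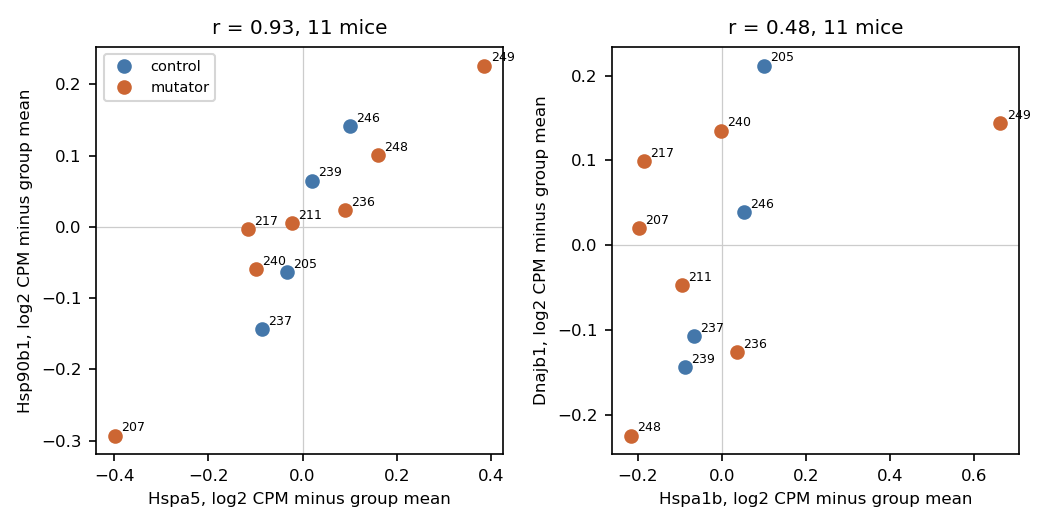
Deviations of log2 CPM from the group mean for Hspa5 against Hsp90b1 (left, r = 0.93) and Hspa1b against Dnajb1 (right, r = 0.48), 1 labelled point per mouse, blue for controls and orange for mutators. Mutators 207 and 249 lie at opposite ends of the left panel, and 249 lies apart on the x axis of the right panel.

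Exon usage was compared between 3 WT/WT and 7 mutator mice. Of 767 bins in the 40 members 660 were tested, and 0 had an adjusted p under 0.05 by edgeR's diffSpliceDGE, where 0.0237% of all 206930 bins did. limma's diffSplice also called 0, and 8 member bins (1.21%) had an unadjusted p under 0.05 in edgeR, against 1.90% of all bins. The 8 bins lay in Hspa4l, Hspa4, Hsf1, Dnajc3 and Fkbp4, all among the first 7 bins from the 5′ end of their gene and all lower in mutators. Bin 5 of Hspa4l had the lowest p, with 0.723% ± 0.214 (SD, n = 3) of the gene's bin counts in WT/WT and 0.507% ± 0.106 (SD, n = 7) in mutators, a log2 usage difference of -0.55 (edgeR adjusted p = 0.334). Bins 4 to 7 of Hspa4l together held 5.195% of its counts in WT/WT mouse 239, 3.50% and 3.82% in 205 and 246, and 2.59% to 3.94% in mutators. Without mouse 205 2 member bins passed, bins 4 and 5 of Hspa4l (edgeR adjusted p = 0.0302 and 0.0130), where the bins called over all genes went from 49 to 186, and without 239 the lowest adjusted p of a member bin was 1. The median share of member counts in bins up to the middle of the bin order was 33.5% to 34.4% in WT/WT and 32.6% to 35.1% in mutators, over 31 members.

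Neighbouring stress genes were read the same way. Of 46 other genes of ER folding and degradation 0 passed in either direction, and 6 had an unadjusted p under 0.05, all higher (13%, against 15.8% of all genes). Ssr3, a translocon subunit, had the lowest p, at 124 ± 2.82 CPM (SD, n = 4) and 137 ± 4.555 CPM (SD, n = 7) (log2 fold change 0.14, edgeR adjusted p = 0.0841). Groups did not overlap for 2 of the 46, Ssr3 among them, against 2.62% of all genes. Of 41 other heat shock and chaperone genes, a list mostly of the cytosol that also held Hspa13 and Serpinh1 of the ER, 0 passed, with Dnajb5 (-0.17, edgeR adjusted p = 0.105) and Hspa13 (0.18, edgeR adjusted p = 0.112) the lowest. Of 13 mitochondrial chaperones and proteases 0 passed. Hspa9 (mortalin) was 214 to 238 CPM in controls and 240 to 256.9 CPM in mutators (log2 fold change 0.11, edgeR adjusted p = 0.178). It was the 1 gene of the 13 whose groups did not overlap, against 2.62% of all genes. Of 18 tested targets of Atf4 and the integrated stress response 0 passed. Chac1 (0.42, edgeR adjusted p = 0.170) and Trib3 (0.63, edgeR adjusted p = 0.186) had the lowest p. By edgeR the unadjusted p was under 0.05 for 10 of the 41 other chaperone genes (24.4%, 6 higher and 4 lower), 3 of the mitochondrial (23.1%) and 4 of the Atf4 genes (22.2%), against 15.8% of all genes. Of the other cell type lists, 0 of 6 neuron, 0 of 8 astrocyte and 0 of 8 microglia markers passed. The same held for 0 of 8 endothelial, 0 of 8 choroid plexus and 0 of 5 blood markers. In this order 1, 3, 3, 4, 3 and 0 had an unadjusted p under 0.05 by edgeR, against 15.8% of all genes. The 3 microglia markers were lower, and 8 of 8 on that list had negative fold changes. The 1 neuron marker was lower, and the astrocyte, endothelial and choroid plexus markers went both ways. Of 8 mural cell markers 50% had an unadjusted p under 0.05 by edgeR, 2 higher and 2 lower. Among them Abcc9 passed and was higher in mutators (0.64, edgeR adjusted p = 0.000433), where 0.439% of all genes passed as higher.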

How the data were processed

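Counts per gene and per exon bin were deposited as whole numbers, not normalized. Per the labels and the submitters' processing notes, 100-base paired reads of an unstranded TruSeq library were called with CASAVA 1.7.1, aligned to mm9 with TopHat2 2.0.6 and Bowtie2, and counted with HTSeq 0.5.3p9 on Ensembl genes. Overlapping genes therefore cannot be told apart by strand, and 4 members (Hsp90b1, Pdia4, Hspa8 and Dnaja1) lie in merged groups of the exon files. Deposited read totals (counts) and their percent of aligned reads served only to compare depths. The authors' tables of DESeq and DEXSeq results, which hold fold changes and p-values, were not used.

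R 4.3.3 with edgeR 4.0.16 was used for the 36666 genes. Low counts were removed by filterByExpr, scaling was by TMM and the quasi-likelihood fit was robust, 7 mutators against 4 controls, and exon bins with diffSpliceDGE, 7 mutators against 3 WT/WT. Reads in no bin, 20.6% to 23.4% of the exon files, were left out. Standard errors came from the fold change and the F statistic. The p-values were adjusted over all genes or bins and the threshold was 0.05. Log2 CPM used a prior count of 2. Correlations used 100000 permutations (numpy 2.4.6). Alternatives were DESeq2 1.42.0, RLE and upper-quartile factors, 1 surrogate variable from sva 3.50.0, log2 library total as a covariate, the unfiltered table, genes with a mean count from 10 upward, limma 3.58.1 for bins, a prior count of 0.5, CPM without TMM factors, and leaving out each mouse in turn. The scripts were tested on simulated data.

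Named were members past the threshold, those without overlap, the 10 with the lowest p and 13 fixed ones, and of each other list those past the threshold or the 2 with the lowest p. The remaining members and other genes given with values, among them Chordc1, Fos, Arc, Cirbp and Rbm3, were chosen after their values were seen. Members, lists and tests were chosen with earlier results of these data known. Promoter windows came from RefSeq (GRCm38.p6), for 32 members, and gene positions and exon lengths from GENCODE M1 on mm9, for all 40. The replicate spread is that between mice, and intervals cover no other error.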

Additional observations from a re-analysis of the deposited data

Results flagged for a closer look

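For 19 named members and the Xbp1 bin, 39 groups of 4 or 7 mice were checked for a single mouse far from the rest by Dixon's ratio, and 2 were past the 95% critical value, where chance gives about 1 in 20. Hspa1a was 14.45 CPM in mutator 249, and the other 6 mutators were 8.00 to 9.28 CPM. Hspa1b was 10.92 CPM in the same mouse and 5.92 to 7.06 CPM in the other 6. The pair shares 49.9% of its 100-base windows, so the flags cannot be taken as independent.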

How the results depend on the processing

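Members called in mutators, 0 higher and 0 lower, stayed at 0 in each alternative, with a range of 0 to 0 when any mouse was left out. Over all genes the number called ran from 50 of 18304 without control 237 to 615 of 17377 by DESeq2. At such low shares 0 of 40 members is near the background. Called member bins ranged from 0 to 2 with a mouse left out. Both bins were in Hspa4l and came without WT/WT mouse 205. Log2 fold changes of the 19 named members, none of which passed, turned sign 14 times, 13 of them with a mouse left out. Over all 40 members the most sign changes in an alternative were 9, without control 246. With a mouse left out Hsp90b1 ranged from -0.0037 to 0.0896 (lowest without control 237), Hspa1a from -0.157 to 0.0218 (highest without control 205), Hspa8 from -0.0601 to 0.0206 (highest without control 246), Dnajb1 from -0.0657 to 0.0598 (highest without control 205) and Hsp90aa1 from -0.0571 to 0.0392 (lowest without control 237). Hsp90aa1 was -0.0159 with 1 surrogate variable. With a mouse left out, r ranged from 0.87 to 0.95 for Hspa5 and Hsp90b1, from 0.40 to 0.58 for Hspa1b and Dnajb1, from -0.45 to 0.10 for Hspa5 and Dnajb1, where 0.10 was without mutator 248, and from 0.0016 (without control 205) to 0.87 (without mutator 249) for Fos and Dnajb1. The difference in the Xbp1 bin ranged from -5.47 to -1.79 percentage points, a result and alternatives chosen after seeing the data, as was leaving out both 207 and 249. The causes were not tested. No paired analysis was possible because the labels give no replicate numbers that tie mutators to controls.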
